A study of Solanum lycopersicum with 96 samples.

Results

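Whole-genome bisulfite sequencing was applied to seed of tomato (Solanum lycopersicum) whose mother plants had been treated with chemical elicitors, and each of 8 groups is represented by 1 pooled region list. Described here are the 2997 intervals that had the same chromosome, start and end in all 8 lists, of 113181 distinct intervals in the lists together. The 3 Bolstar groups were BABA in time window 2 (BABA TW2), Ina in time window 2 (Ina TW2) and a control. The 5 Moneyberg groups were BABA TW2, Ina TW2, BABA in time window 3 (BABA TW3), MeJA in time window 3 (MeJA TW3) and a control. BABA is beta-aminobutyric acid, MeJA is methyl jasmonate, and Ina is named as in the labels; dose and age were not given in the sources used here. All groups share the tissue, seed pooled by 10 per extraction and taken from 6 mother plants per treatment, and each group had 12 libraries, 2 for each of 6 replicates. The intervals were chosen by their coordinates in these same lists, so that their number, lengths and positions are a description with no test. With 1 pooled list per group no replicate error exists for any value, and the read depth behind a region is unknown.

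Cytosine methylation in plants is kept up in the CG, CHG and CHH contexts by separate enzymes, and it silences transposable elements in the heterochromatin around the centromeres. Bisulfite treatment converts unmethylated cytosine and leaves methylated cytosine, so reads report the state of each site. BABA, a non-protein amino acid, and methyl jasmonate, the ester of a wound hormone, are elicitors that set plants into a state of readier defence, called priming. Region names in the lists begin with HYPO, but no methylation level was used here, so listing is not read here as a direction of methylation. Column 5 of each list holds a whole number per region, called the score. What it counts was not given in the sources used here, and it is not read as a methylation level. The matching of intervals did not use the score. Each list had a lowest score, though, from 65 in Moneyberg Control to 85 in Bolstar BABA TW2. An interval in all 8 lists therefore scored at least 85 in Bolstar BABA TW2. The genome build was not given in the sources used here and the only gene table at hand is of another assembly, so intervals are given by chromosome, start and end as the lists have them, counted from 1, without genes or sequence.

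Identity in all 8 lists was uncommon among regions. The identical intervals were 12.4% of the regions of Bolstar BABA TW2 (95% Wilson interval 12% to 12.8%), the shortest list with 24151 regions, and 9.12% of those of Moneyberg Control (8.82% to 9.44%), the longest with 32856. The other 6 lists lay between these shares. By sequence the intervals covered 32.5 Mb, which was 7.18% to 7.26% of the listed bases of each list and 8.46% of the 384.5 Mb that all 8 lists held in common. Most of the sequence common to all lists therefore lay in regions whose boundaries differed somewhere. Within a cultivar, 8328 intervals were identical in the 3 Bolstar lists and 9008 in the 5 Moneyberg lists. Of these, 36.0% (35.0% to 37.0%) and 33.3% (32.3% to 34.3%) were identical in all 8 lists. Single boundaries were shared more often than whole intervals, with 8129 starts and 8029 ends present in every list.

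The numbers of intervals by how many lists held them declined step by step, with 64209 in a single list and 1794 in exactly 7 lists, and were higher again at 2997 for all 8. Just outside the rule, the 1794 intervals of 7 lists had a median length of 8.62 kb and a median of 17.6 score units per kb. The 2997 intervals just inside it had 8.56 kb and 19.3 per kb. The list that lacked an interval of the other 7 was Bolstar BABA TW2 in 573 cases, Bolstar Control in 276 and Bolstar Ina TW2 in 204. A Moneyberg list was the one lacking it in 130 to 160 cases each. In 613 of the 1794 cases the odd list held a region with the same start only, and in 633 with the same end only. In 189 cases it held more than 1 region there, and in 330 no base at all. Bolstar BABA TW2 accounted for 288 of these 330, and in 205 of them every score in the other lists was below 85, the lowest score in the Bolstar BABA TW2 list. No other list showed such a case.

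**Figure D1:**
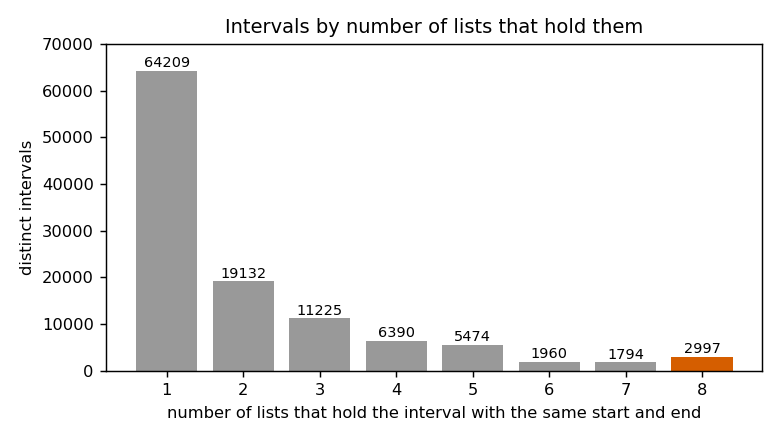
Number of distinct intervals (y axis) by the number of lists that held them with the same start and end (x axis). The orange bar is the 2997 intervals identical in all 8 lists, above the 1794 held by 7 and the 1960 held by 6.

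The identical intervals were spread over all 12 chromosomes, but thinly over chromosomes 9 and 6. Chromosome 3 had 338, chromosome 5 had 337, chromosome 7 had 323 and chromosome 8 had 318. Chromosome 9 had 40, or 0.549 per Mb, and chromosome 6 had 91, or 1.83 per Mb, where chromosome 5 had 5.05 per Mb. As a share of the regions that each list held on the chromosome, identical intervals made up 1.78% to 2.35% on chromosome 9 and 4.52% to 5.82% on chromosome 6. On the other 10 chromosomes the range over lists began at 7.85%, on chromosome 10, and reached 17.5%, on chromosome 3. Chromosome 9 held 6.66% to 7.45% of the regions of the lists and 1.34% of the identical intervals (0.982% to 1.81%).

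**Figure D2:**
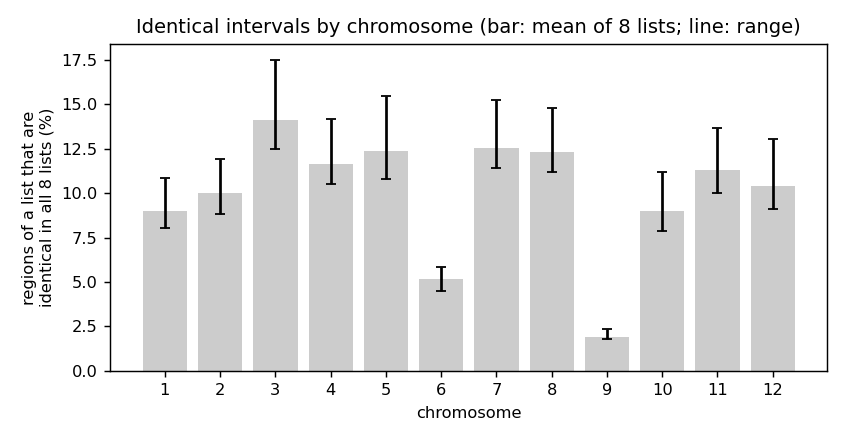
Share of a list's regions on each chromosome that were identical in all 8 lists (y axis, percent). Bars are the mean of the 8 lists and lines their range; chromosomes 9 and 6 are lowest, and the range of chromosome 3 reaches highest.

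The deficit on chromosome 9 lay in its interior. No identical interval was found from 7382059 to 53287098, a stretch of 45.9 Mb in which the Bolstar lists had 1111 to 1439 regions and the Moneyberg lists 1285 to 1427. The widest such stretch on chromosome 6 was 8.44 Mb, from 5835226 to 14275670, with 308 to 404 regions in the Bolstar lists and 285 to 321 in the Moneyberg lists. On chromosome 3 the widest was 5.02 Mb, from 13323383 to 18341015, and there the lists themselves held only 20 to 27 regions. The identical intervals are thus missing from chromosome 9 where regions were listed, and from that part of chromosome 3 where few were.

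Most identical intervals lay away from chromosome ends, as the lists did. Taking the last listed base as the end of a chromosome, 2769 of 2997 (92.4%) lay between the first and the last 5 Mb, beside 90.5% to 91.4% of the regions of the lists. The first 5 Mb held 158 and the last 5 Mb held 70. The last 5 Mb had the lower yield, 6.04% to 9.51% of the list regions there, against 9.31% to 12.6% between the ends. With ends of 10 Mb the order was reversed. Then 74.8% of identical intervals lay between the ends, beside 77.2% to 77.9% of the list regions. The yield was 10.1% to 14.6% in the last 10 Mb and 8.84% to 11.9% between the ends. On chromosomes 1, 2, 4 and 10 an identical interval reached the last listed base. In bins of 5 Mb the densest held 49, from 10 to 15 Mb on chromosome 11, where the median over 168 bins was 18 and 9 bins had none.

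In the lists, 57.7% to 62.9% of the identical intervals had no identical interval as a direct neighbour, and runs of 3 or more numbered 103 to 137. Identical intervals were only 9.12% to 12.4% of the regions of a list, so most would stand alone if scattered too. The share alone under scattering was not computed, and the values are not read as a tendency to stand apart. The longest run was the same in all lists, 12 adjacent intervals on chromosome 7 from 29300343 to 29447603, of 3.10 to 24.2 kb each. The next longest run had 5 to 7 intervals. A single interval of the 12 had scores that differed between lists, the one at 29422372 to 29430650, with 311 to 312. The longest of the run, at 29388731 to 29412886, was 24.2 kb long and had no difference in score.

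Identical intervals were shorter than other regions at the median, and less often very long. Their lengths ran from 1.29 to 74.7 kb with a median of 8.56 kb, where the other regions had medians of 9.79 kb in Moneyberg Control to 13.3 kb in Bolstar BABA TW2. Of the identical intervals 10.6% were 20 kb or longer, against 20% to 32.2% of the others. At 50 kb or more there were 7, or 0.234%, where other regions of that size numbered 685 to 1391 per list, or 2.29% to 6.58%. The shortest, at 19373220 to 19374513 on chromosome 1, scored 92 throughout.

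The longest identical interval was 74.7 kb on chromosome 5, from 8664329 to 8739030. Its score was 1790 in Bolstar BABA TW2, 1788 in Ina TW2 and 1789 in Bolstar Control. In Moneyberg it was 1792 in all 4 treatment lists and 1791 in the control. The groups of the cultivars did not overlap, and all 8 scores lay within 4 units. The next longest were also on chromosome 5, at 55127489 to 55188487 (61.0 kb) and 51742047 to 51802522 (60.5 kb). The 61.0 kb interval scored 784 in every list but Moneyberg BABA TW3, with 783. The longest intervals of chromosome 10, at 51501351 to 51558488 (57.1 kb), and chromosome 4, at 20981439 to 21033072 (51.6 kb), had scores of 973 and 1040 in every list. Among the longest intervals of the 12 chromosomes, 4 had a single score across lists, on chromosomes 4, 6, 9 and 10.

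Short gaps to the neighbouring regions were rare beside the identical intervals. The gap to the nearer neighbour had a median of 1.81 to 1.99 kb over the lists, against 0.716 to 1.02 kb for other regions. Within each length class the order was the same in every list. At 2.5 to 5 kb the medians were 2.27 to 2.69 kb for identical intervals and 1.76 to 2.40 kb for others. At 20 kb or more they were 1.29 to 1.39 kb and 0.329 to 0.519 kb. The part of length in the difference was not tested. Gaps under 500 bp stood beside 5.47% to 5.84% of identical intervals and 38.6% to 44.8% of other regions. Very wide gaps did not set them apart, since a nearest gap of 10 kb or more was found for 9.28% to 13.7% of identical intervals and 9.64% to 12.4% of other regions. Gaps on both sides were of at least 1 kb for 79.5% to 80.1% of identical intervals, against 45.2% to 51.0% of the others. The distribution of gaps had a step at 1 kb in every list, noticed after the values were seen. Beside identical intervals, 282 to 300 gaps per list fell in the 100 bp from 1 kb upward and 103 to 110 in the 100 bp just below 1 kb. Beside other regions these numbers were 1130 to 1328 and 492 to 733.

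The gaps beside identical intervals often differed between lists. Both adjoining gaps were the same in all 8 lists for 747 of them (24.9%), and neither gap was for 840 (28.0%). Ranked by the smallest nearest gap over the 8 lists, the most isolated interval was on chromosome 6, at 44599748 to 44604268. It stood 108.8 to 112.2 kb from its nearest neighbour and had a score of 93 throughout. An interval on chromosome 10, at 57518997 to 57525264, lay 100.3 kb from its nearest neighbour in all lists, with a score of 132. In single lists other intervals had wider gaps, such as the one at 8722 to 12322 on chromosome 8, with 79.9 to 175.8 kb. None of the 5 most isolated intervals by this ranking varied in score.

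The score per kb of identical intervals was higher than that of other regions. The median was 19.3 per kb in every list, against 15.8 to 15.9 per kb for other regions. Identical intervals had to be in the Bolstar BABA TW2 list, whose lowest score was 85, while other regions went down to 65 in Moneyberg Control. At a given length this also limits the score per kb, and its part in the difference was not tested. Within a length class the order was the same from 2.5 kb upward. In Bolstar BABA TW2 the medians at 5 to 10 kb were 18.2 per kb for identical intervals and 16.0 for other regions. At 2.5 to 5 kb they were closer in that list, 29.3 and 27.8. Identical intervals of 5 to 10 kb had 18.2 to 18.3 per kb and other regions 14.6 to 16.0, and intervals of 10 to 20 kb had 16.7 to 16.8 and others 14.6 to 14.9. At 20 kb or more the values were 18.4 to 18.5 and 15.9 to 16.3. Below 2.5 kb, with 56 identical intervals, the medians were 53.2 per kb for identical intervals and 41.8 to 59.7 for others. There the order was reversed in Bolstar BABA TW2, with 59.7 for others, and kept in the remaining lists, with 41.8 to 50.5.

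Intervals differed widely in score per kb. At 9988949 to 9990563 on chromosome 8 the score was 157 over 1.62 kb, or 97.2 per kb, in all lists. A neighbour on the same chromosome, at 10001324 to 10005359, had 367 over 4.04 kb. The other 3 of the 5 densest lay on chromosome 11, between 17929845 and 18101771, with 87.8 to 88.1 per kb. The sparsest, at 4720121 to 4735611 on chromosome 12, had 8.0 per kb and scores of 123 to 125. The other 4 of the sparsest, on chromosomes 3, 5, 8 and 11, had 8.74 to 8.91 per kb and did not vary in score.

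**Figure D3:**
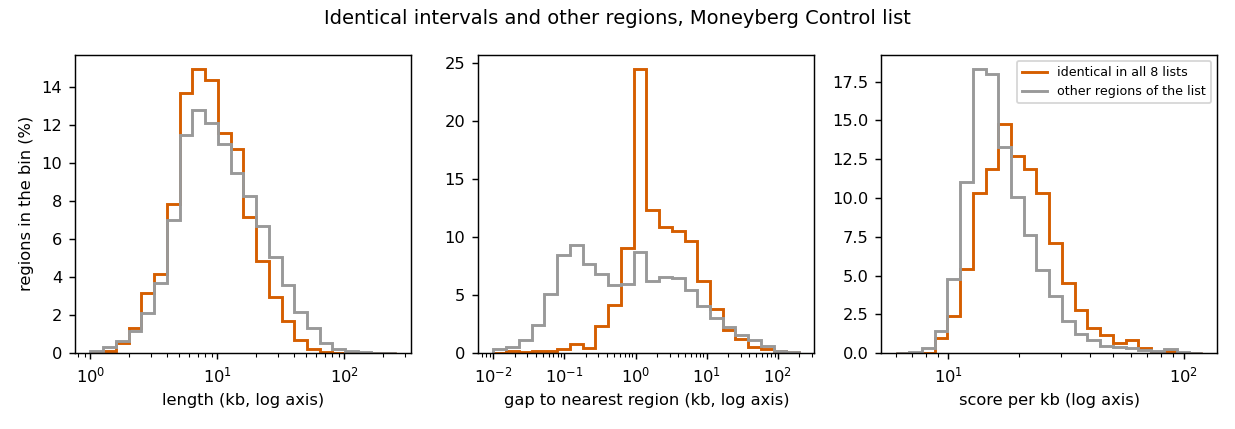
Distribution of length, of the gap to the nearest region and of score per kb (x axes, all logarithmic) for identical intervals (orange) and the other regions (grey) of the Moneyberg Control list; the y axis gives the percent of regions in each bin. Identical intervals have few gaps under 0.5 kb, a peak of gaps just above 1 kb, and a higher score per kb.

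What the score counts is unknown, so equal coordinates may by themselves bring equal scores, and agreement is not read as separate support. The score, which was not used in matching coordinates, was the same in all 8 lists for 2502 intervals. It differed for 495, or 16.5% (15.2% to 17.9%). Differences were small. In 324 of the 495 the scores spanned exactly 1 unit, in 89 they spanned 2, in 56 they spanned 3 to 5, and in 26 they spanned 6 or more. Longer intervals differed more often, at 12% under 5 kb (9.44% to 15.1%) and 30.6% from 20 kb upward (25.8% to 35.9%).

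Pairs of lists of different cultivars had different scores more often than pairs within a cultivar. Between a Bolstar and a Moneyberg list 11.0% to 11.8% of the identical intervals had different scores over 15 pairs, where 14.6% to 16.3% of all intervals that these pairs held identically differed. Within Bolstar the share was 4.94% to 5.57% over 3 pairs, beside 8.31% to 9.56% of all intervals of the pairs. Within Moneyberg it was 4.84% to 5.54% over 10 pairs, beside 5.85% to 7.21%. Over all intervals the Bolstar pairs thus lay above the Moneyberg pairs, while among identical intervals their ranges overlapped. In Moneyberg the 4 pairs of a treatment with the control had 4.84% to 5.07% and the 6 pairs of treatments 5.01% to 5.54%. In Bolstar the pairs of a treatment with the control had 4.94% and 5.57%, and the pair of treatments 5.57%. For the control lists, Bolstar Control against Moneyberg Control, scores differed in 336 identical intervals (11.2%), where 15.4% of all 6206 intervals that this pair held identically differed. Bolstar Control was higher in 200 (6.67%) and lower in 136 (4.54%), beside 9.1% and 6.28% of all intervals of the pair. The shares among identical intervals were below this background in both directions, and in the same order. This background includes the identical intervals, and interval length was not taken into account.

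**Figure D4:**
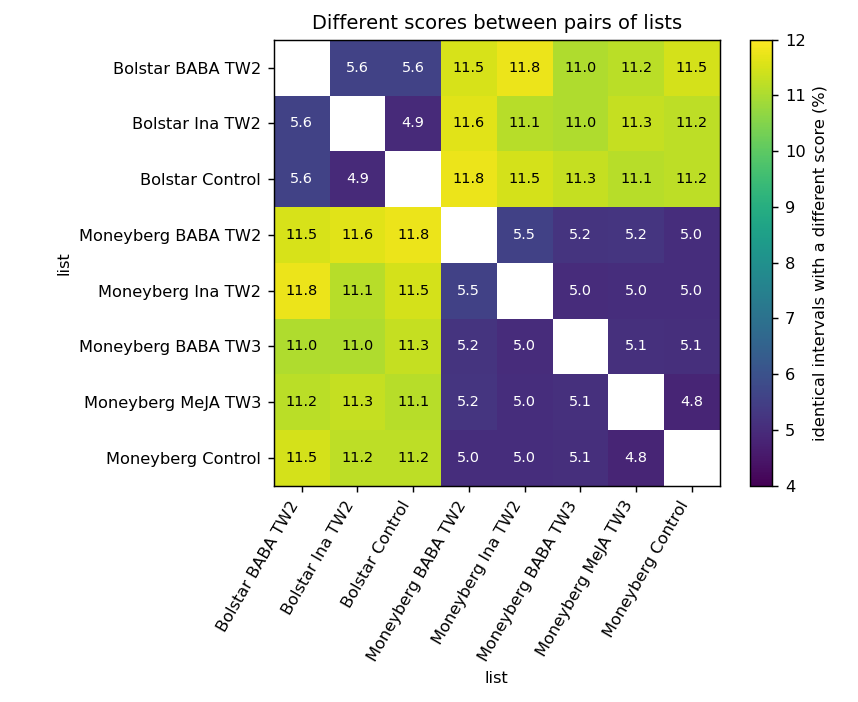
Percent of the 2997 identical intervals whose score differed between each pair of lists (colour and number; both axes list the groups). The block of 15 Bolstar with Moneyberg pairs holds 11.0% to 11.8%, and pairs within a cultivar hold 4.8% to 5.6%.

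In 191 intervals (6.37%) the score separated the cultivars, meaning that all 3 Bolstar scores lay above, or all below, all 5 Moneyberg scores. Bolstar was above in 103 and below in 88. In 111 of the 191 the score was also constant within each cultivar. Of the 191, 121 (63.4%, 56.3% to 69.9%) were on chromosomes 6 and 12, which held 385 (12.8%) of the identical intervals. Each of these chromosomes had its own direction. On chromosome 12 Bolstar was above in 77 and below in 6, and on chromosome 6 it was below in all 38. On the other 10 chromosomes together Bolstar was above in 26 and below in 44, of 2612 intervals, with 11 above and 8 below on chromosome 5 and 2 above and 14 below on chromosome 2. On chromosome 9 none of the 40 intervals separated the cultivars.

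**Figure D5:**
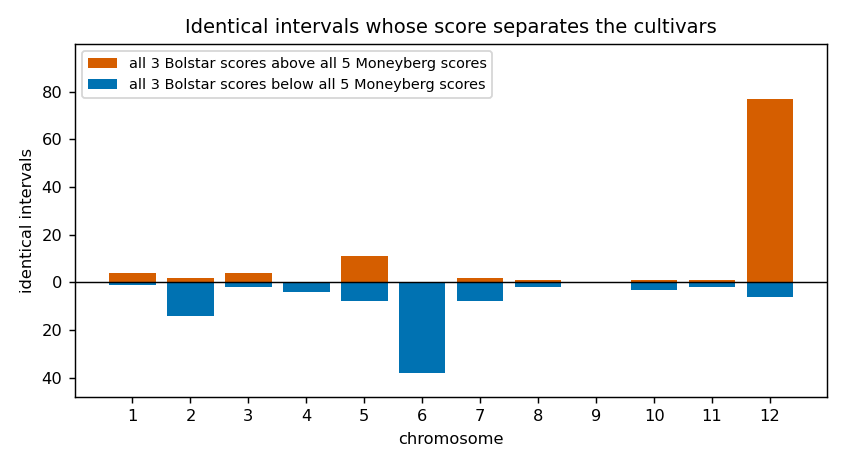
Number of identical intervals on each chromosome whose score separated the cultivars, with Bolstar above Moneyberg drawn upward (orange) and below drawn downward (blue). Chromosome 12 has 77 upward and 6 downward, and chromosome 6 has 38, all downward.

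On chromosome 6 the scores changed abruptly along the sequence. All 42 identical intervals from 2679983 to 33730600 had scores that differed between lists, and 38 of them separated the cultivars. Beyond that, from 33861046 to 46869575, all 37 identical intervals had the same score in all 8 lists. Before it, 4 of 12 differed. The limits of this stretch are the first and the last interval that separated the cultivars, set after the values were seen. By this choice no separated interval lies outside it. The last interval of the differing stretch, at 33719870 to 33730600, had 117 in each Bolstar list and 119 in each Moneyberg list. The next, at 33861046 to 33868273, had 91 in all 8.

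The largest difference between cultivar means was on chromosome 6 at 4262503 to 4290180 (27.7 kb), with a score of 513 in all 3 Bolstar lists and 524 in all 5 Moneyberg lists. At 24361434 to 24375574 (14.1 kb) the scores were 134 in Bolstar BABA TW2, 133 in Ina TW2 and 131 in Bolstar Control, and 142 in every Moneyberg list. At 31754460 to 31763975 (9.52 kb) they were 100, 96 and 97 in the same Bolstar order, and 105 in every Moneyberg list. The Moneyberg lists had a single score in 36 of the 38 separated intervals of chromosome 6 and the Bolstar lists in 13, so the spread lay in the cultivar with the lower score. The mean of Bolstar minus that of Moneyberg had a median of -3.17 score units and a lowest value of -11 in these 38.

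On chromosome 12 the picture was the mirror image, and less complete. Between 5547124 and 58619022, 105 of 221 identical intervals differed in score, with Bolstar above in 77 and below in 1. The limits of this stretch are the first and the last separated interval with Bolstar above, set after the values were seen. By this choice none with Bolstar above lies outside it. Before this stretch Bolstar was below in 4 of 13. After it, 14 of 60 differed and a single interval separated the cultivars. At 51570099 to 51581736 (11.6 kb) the score was 245 in all 3 Bolstar lists. In Moneyberg it was 238 in BABA TW2, 237 in Ina TW2, 237 in BABA TW3, 236 in MeJA TW3 and 237 in the control. At 22789585 to 22805844 (16.3 kb) it was 802 in all 3 Bolstar lists and 795 to 797 in the Moneyberg lists. The Bolstar lists had a single score in 75 of the 77 intervals and the Moneyberg lists in 41. Over all 191 separated intervals, the cultivar with the higher score was constant in 185 and the one with the lower score in 111. The first 5 Mb went the other way, as at 2865377 to 2874747, with 115, 113 and 113 in Bolstar BABA TW2, Ina TW2 and Control and 121 in every Moneyberg list.

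Treatments were set against the control of the same cultivar to ask how far the score of these intervals differed with the elicitor. Each cultivar's comparisons share its control list and are not independent. In Bolstar, BABA TW2 differed from the control in 167 identical intervals (5.57%), where 9.56% of all intervals identical in that pair differed. It was higher in 98 and lower in 69, beside 5.28% and 4.28% of the pair's intervals, and 134 of the 167 differences were of 1 unit. Bolstar Ina TW2 differed in 148 (4.94%, background 8.31%), higher in 67 and lower in 81 (backgrounds 3.6% and 4.72%). The order of higher and lower in these intervals was that of the background in both comparisons.

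In Moneyberg each treatment had a higher score than the control more often than a lower one. BABA TW2 differed in 151 intervals (5.04%, background 6.49%), higher in 101 and lower in 50 (backgrounds 4% and 2.49%). Ina TW2 differed in 151 (background 5.85%), higher in 103 and lower in 48 (3.5% and 2.35%). BABA TW3 differed in 152 (5.07%, background 6.21%), higher in 107 and lower in 45 (3.66% and 2.55%). MeJA TW3 differed in 145 (4.84%, background 6.54%), higher in 97 and lower in 48 (3.94% and 2.61%). Higher scores were more frequent than lower ones in the background too. The differing shares of the identical intervals were below their backgrounds in all 6 treatment comparisons. These backgrounds include the identical intervals. Without them they were 11.0% for Bolstar BABA TW2, 9.32% for Bolstar Ina TW2 and 6.03% to 6.93% in Moneyberg. Identical intervals were also shorter at the median than other regions of the lists, and shorter ones differed less often. The part of length was not tested.

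These differences amounted to little in total score. Summed over the 2997 intervals, the score was 632007 in Bolstar BABA TW2, 631996 in Ina TW2 and 631974 in Bolstar Control. It was 632043 in Moneyberg BABA TW2, 632057 in Ina TW2, 632037 in BABA TW3, 632036 in MeJA TW3 and 632002 in Moneyberg Control. Treatment sums were above the control sums by 22 to 55 units, but single intervals shifted this excess by much. The most different interval added to the excess in Bolstar and reduced it in Moneyberg. Bolstar Ina TW2 had 621 and Bolstar Control 604 at 46029249 to 46052084 on chromosome 10, and without that interval the excess of Ina TW2 was 5 in place of 22. For Bolstar BABA TW2 it was 24 in place of 33 without the interval at 55093369 to 55099424 on chromosome 2. At 33290295 to 33307987 on chromosome 11 Moneyberg BABA TW2 had 365, Ina TW2 362, BABA TW3 369, MeJA TW3 369 and Moneyberg Control 387. Without it BABA TW2 exceeded the Moneyberg control by 63 units in place of 41 and Ina TW2 by 80 in place of 55. In window 3, BABA did so by 53 in place of 35 and MeJA by 52 in place of 34. In 96 intervals a single list differed while the other 7 agreed. That list was Bolstar Control or Moneyberg BABA TW2 in 16 each, Bolstar Ina TW2 in 14, Bolstar BABA TW2 in 13, Moneyberg Ina TW2 or Moneyberg Control in 11 each, BABA TW3 in 8 and MeJA TW3 in 7. Moneyberg Control was the lower one in 10 of its 11, Bolstar Ina TW2 in 11 of its 14 and MeJA TW3 in 5 of its 7. The remaining lists were not more often lower than higher.

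A few intervals varied far more than the rest. The largest range relative to the score was at 55093369 to 55099424 on chromosome 2 (6.06 kb). Scores there were 110 in Bolstar BABA TW2, 99 in Ina TW2 and 101 in Bolstar Control, and 103, 104, 92, 94 and 101 in Moneyberg BABA TW2, Ina TW2, BABA TW3, MeJA TW3 and Control. The ranges of the cultivars overlapped, and both controls had 101. The largest absolute range was at 33290295 to 33307987 on chromosome 11 (17.7 kb). Moneyberg Control stood alone there at 387, above 362 to 371 in the Bolstar lists and 362 to 369 in the Moneyberg treatments. Of the 10 intervals with the largest relative range, 7 separated the cultivars with Bolstar below, on chromosomes 2, 6 and 12, and 1 with Bolstar above. That interval, at 4421769 to 4426406 on chromosome 11, had 88 in all 3 Bolstar lists and 83 to 86 in the Moneyberg lists, among them the lowest score of any identical interval.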

How the data were processed

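Seed DNA was sequenced after bisulfite conversion with low-input Methyl-Seq libraries and paired reads, per the labels' protocols. The authors deposited 1 region list per group, pooled over 12 libraries, with a score per region in column 5. Trim Galore is named in the submitters' processing notes. Aligner, region caller, thresholds and genome build were not stated in these sources. The labels describe 96 libraries, where the series text gives 90.

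Lists were assigned to groups by the sample labels. Intervals were matched on columns 1 to 3 exactly. Length, gap to the adjacent region of the same list, and score per kb were computed with Python 3.11.15, pandas 2.3.3 and numpy 2.4.6. Wilson intervals (95%, scipy 1.17.1) cover counting error over intervals only. No test was run, since each group has 1 list. Matching was tested on simulated lists. The last listed base lay more than 1 Mb from the last gene of the gene table on 11 chromosomes, so it was not used.

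Members, lists and rules were chosen with earlier results of these data known. Named intervals are the 10 longest, the 10 of largest relative score range, the 5 densest, sparsest and most isolated, the longest run and the longest of each chromosome. The shortest interval, those of the largest cultivar differences, the 2 at the limit of the chromosome 6 stretch and those of the largest absolute ranges were chosen after their values were seen. Alternatives covered boundary tolerance, lists left out, a common minimum score, chromosomes left out, end width and summary measures.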

Additional observations from a re-analysis of the deposited data

Results flagged for a closer look

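For Ina in time window 2, intervals with a higher score minus those with a lower one came to -14 for Bolstar Ina TW2 against its control, and to 55 for Moneyberg Ina TW2 against its control. All intervals identical in these pairs had the same order, with 3.6% higher and 4.72% lower in Bolstar Ina TW2 and 3.5% higher and 2.35% lower in Moneyberg Ina TW2. Moneyberg treatments other than Ina, set against the same control, had 51 (BABA TW2), 62 (BABA TW3) and 49 (MeJA TW3), so the Moneyberg value is not particular to Ina. The difference between cultivars was not tested, as each side rests on 1 list. By summed score Bolstar Ina TW2 exceeded its control by 22 units, or by 5 without 1 interval of chromosome 10, and Moneyberg Ina TW2 by 55 units, or by 80 without 1 interval of chromosome 11.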

How the results depend on the processing

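No paired analysis was possible because each group is 1 pooled list. Of 61 recomputed values, 32 stayed within the limits set (1.5 times for a count, otherwise the interval or the spread over lists). The summed scores of treatment minus control had no such limit and could count only as moved or reversed. The number of identical intervals was 2957 to 3860 under other settings, except 5508 with a reciprocal overlap of 95% in place of identical boundaries. The share with different scores was 5.71% when only ranges above 1 counted, 4.67% above 1% of the score, 9.51% in Moneyberg lists only, 7.64% in Bolstar lists only, and 12.3% without chromosomes 6 and 12, an alternative added after seeing the data. Intervals separating the cultivars with constant scores numbered 111, 191 with differences allowed within a cultivar, and 55 without chromosomes 6 and 12. Summed scores of treatment minus control without the most different interval, also added after seeing the data, were 24 for BABA TW2 and 5 for Ina TW2 in Bolstar, and 63, 80, 53 and 52 for BABA TW2, Ina TW2, BABA TW3 and MeJA TW3 in Moneyberg. Identical minus other regions, averaged over the lists, was -2.38 kb for median length, -3.67 kb at the common minimum score of 85 and -5.01 kb for the mean. It was 1.04 kb for the median nearest gap, 1.97 kb for the larger gap, 1.25 kb at the common minimum and 1.11 kb without chromosome 9. It was 3.47 for score per kb, 2.31 for summed score over summed length, 4.59 at 2 to 10 kb and 3.38 without chromosome 9. The common minimum score was not applied to score per kb. The share in chromosome ends was 7.61% within 5 Mb, 2.24% within 2 Mb and 25.2% within 10 Mb, and this rise follows from the widths. Beside the shares of the lists, identical intervals were fewer in the ends at 2 and 5 Mb and more at 10 Mb. Measured by bases in place of regions, the share of identical intervals minus that of the lists was -2.90 percentage points on chromosome 1, -2.86 on chromosome 9 and -2.12 on chromosome 10, in place of -1.33, -5.71 and -1.03, and it changed sign on chromosome 2 (0.14 in place of -0.12) and on chromosome 12 (-0.80 in place of 0.16); the cause was not tested. Without levels or reads, the depth behind a score difference of 1 unit is unknown.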
